A study of Homo sapiens with 6 samples.

Results

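The 7 genes described here encode the intermediate filament proteins of neurons and neural progenitors: the neurofilament subunits NEFL, NEFM and NEFH, the related neuronal subunits INA and PRPH, and VIM and NES. They were taken by symbol from a table of 26372 genes, with no use of their values, and all 7 were found in it and passed the filter for expressed genes. The values come from 3 libraries with GOMAFU knockdown and 3 control libraries of the BE(2)-M17 line, cells established from a human neuroblastoma, numbered 2, 3 and 4 in both groups. GOMAFU is a long non-coding RNA held in the nucleus and listed under the symbol MIAT. All cells shared 1 line and 1 serum medium, and nothing in the labels says that separate cultures were used, so p-values measure the spread between these libraries, which may be technical. The labels' protocol names transfection of 100 pmol of siRNA or microRNA reagent with a lipid carrier. It names neither the knockdown sequence nor what the control cells received. The series addressed a non-coding RNA pathway in human neuron differentiation, and the comparison here asks whether transcripts of the filament genes differed after loss of GOMAFU.

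Intermediate filaments are rope-like polymers of coiled-coil proteins. Neurofilaments are built from the light chain NEFL together with NEFM, NEFH and, depending on the neuron, INA (alpha-internexin) or PRPH (peripherin), and they set the width of axons. PRPH is typical of peripheral neurons, including the sympathetic lineage from which neuroblastoma arises. VIM (vimentin) and NES (nestin) form filaments in progenitors and mesenchymal cells, and both decline as neurons mature while neurofilament subunits appear.

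FPKM, the deposited unit, scales fragments by transcript length and by a measure of library size, so that levels of different genes can be set side by side. Library sums ran from 579365 to 619208 FPKM in knockdown and from 611348 to 637153 FPKM in control libraries, and the number of reads is unknown. MIAT, the knockdown target, was at 1.27, 1.32 and 3.21 FPKM in knockdown replicates 2, 3 and 4, against 5.38, 5.96 and 8.57 FPKM in control replicates 2, 3 and 4, with no overlap. Knockdown replicate 4 stood apart from the rest: on the log2 scale it correlated with the other 5 libraries at 0.940 to 0.956 across genes, whereas those 5 correlated with one another at 0.983 to 0.997. The interferon response list (20 genes) summed to between 82.8 and 11795 FPKM in knockdown libraries and 45.1 to 52.1 FPKM in controls, and its median log2 distance from the control mean was 2.45, 0.40 and 7.58 in knockdown replicates 2, 3 and 4. Of 17 adrenergic neuroblastoma markers 15 were expressed, among them HAND2 at 553 ± 47.5 FPKM in knockdown and 541 ± 21.6 FPKM in control libraries (SD, n = 3 each). TH, an adrenergic marker outside these 15, stood at no more than 0.09 FPKM in any library. Schwann and glial markers (8 genes) summed to at most 2.49 FPKM in any library. Epithelial markers (6) summed to at most 6.30 and blood and endothelial markers (7) to at most 1.94 FPKM. FABP7, KRT5, KRT14 and CD3E were listed at 0 throughout. Fibroblast markers (7) summed to more, from 94.0 to 105 FPKM in knockdown and from 81.0 to 101 FPKM in control libraries.

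All 7 filament genes were abundant, within the top 6.17% of the table in control libraries. VIM averaged 237 ± 79.7 FPKM in knockdown and 261 ± 58.7 FPKM in control libraries (SD, n = 3 each), and was the highest of the 7 in the controls, where it ranked 298 of 26372. By the knockdown mean PRPH was the highest, at 241 ± 109 FPKM (SD, n = 3), through replicate 4. PRPH followed in the controls at 188 ± 1.49 FPKM, then NEFM at 184 ± 35.9, INA at 149 ± 7.41 and NEFL at 111 ± 7.36 FPKM. NES at 58.0 ± 8.68 and NEFH at 53.3 ± 8.76 FPKM were the lowest. In this order PRPH and NEFM overlapped in their control values, as did NEFM and INA, and NES and NEFH, while the other neighbours in the order did not overlap. PRPH varied least among the controls, by 0.789% of its mean, and VIM most, by 22.5%. Neurofilament, peripheral and progenitor filament transcripts were thus present together in both groups.

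Other cytoplasmic filament genes were rare beside these. Of 25 such genes, mostly keratins, 4 were expressed and 9 were listed at 0 in every library, among them the keratin KRT8. The expressed ones were KRT10, SYNM, IFFO1 and KRT19, of which KRT10 averaged 17.1 FPKM in knockdown and 15.4 FPKM in control libraries. GFAP, the filament of astrocytes, stood at no more than 0.04 FPKM and DES, that of muscle, at no more than 0.79 FPKM.

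RefSeq promoters (GRCh38.p14) were at hand for 4 of the 7 genes, and are shown because PRPH stood apart from the others in 1 library described below. Each line gives the 250 bases before the start that RefSeq annotates, 5′ to 3′ on the gene's strand. Capitals mark the core TATA box TATAAA and the GC box GGGCGG on either strand.
PRPH: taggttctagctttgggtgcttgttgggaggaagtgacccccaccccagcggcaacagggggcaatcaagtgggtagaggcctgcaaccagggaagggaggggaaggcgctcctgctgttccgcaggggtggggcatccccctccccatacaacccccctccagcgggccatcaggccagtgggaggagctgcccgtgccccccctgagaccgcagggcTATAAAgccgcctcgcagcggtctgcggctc
INA: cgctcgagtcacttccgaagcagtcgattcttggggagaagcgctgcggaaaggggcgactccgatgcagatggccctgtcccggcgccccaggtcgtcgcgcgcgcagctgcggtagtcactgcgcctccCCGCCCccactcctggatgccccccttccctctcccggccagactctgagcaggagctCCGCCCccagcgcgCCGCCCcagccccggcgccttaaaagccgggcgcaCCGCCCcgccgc
VIM: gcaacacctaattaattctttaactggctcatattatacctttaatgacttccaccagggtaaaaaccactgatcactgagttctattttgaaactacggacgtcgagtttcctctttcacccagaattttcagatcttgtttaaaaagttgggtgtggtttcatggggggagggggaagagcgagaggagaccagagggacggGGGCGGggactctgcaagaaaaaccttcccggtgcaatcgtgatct
NES: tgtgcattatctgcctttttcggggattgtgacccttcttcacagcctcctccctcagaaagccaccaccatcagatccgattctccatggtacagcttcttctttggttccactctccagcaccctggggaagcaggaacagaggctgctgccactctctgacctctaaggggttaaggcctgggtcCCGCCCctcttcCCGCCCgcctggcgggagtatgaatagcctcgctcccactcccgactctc
The windows are chr12:49294897-49295146 for PRPH, chr10:103276888-103277137 for INA, chr10:17227991-17228240 for VIM (all plus strand) and chr1:156677408-156677657 for NES (minus strand). The PRPH window lies inside the longer span that GENCODE 29, used for gene positions here, gives this gene, since the annotations place its start differently.

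The promoters differed in these letters. PRPH held 1 TATAAA, starting 31 bases before the start, and no GC box. INA held 4 GC boxes, NES 2 and VIM 1, and none of these 3 held TATAAA. Over 35116 promoters of this length, 10.7% held TATAAA and 42.6% a GC box. The interferon-response letters GAAANNGAA, found in 6.88% of promoters, the cyclic AMP response letters TGACGTCA (1.65%) and CCAAT (32.0%) were found on neither strand of the 4 windows, which says nothing of binding elsewhere.

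The genes lie at 6 places in the genome (GENCODE 29, GRCh38, the same build as hg38, which the submitters' processing notes name). NEFM (chr8:24913012-24919098, plus strand) and NEFL (chr8:24950955-24957110, minus strand) are neighbours, with 31856 bases between them. NEFH is at chr22:29480230-29491390 (plus), INA at chr10:103277163-103290351 (plus), VIM at chr10:17228259-17237593 (plus), PRPH at chr12:49293252-49298686 (plus) and NES at chr1:156668763-156677397 (minus). VIM shares 1727 bases with its antisense gene VIM-AS1, and no label states whether the libraries kept strand. VIM-AS1 was at 0.26, 0.62 and 0.21 FPKM in knockdown replicates and 0.41, 0.51 and 0.12 FPKM in control replicates 2, 3 and 4. The longest annotated transcript ranged from 2666 bases for VIM to 5558 for NES, against a median of 3653 for expressed genes. GC content was highest in PRPH (61.6%), then NES (59.3%), NEFH (57.8%), NEFM (54.0%), INA (50.8%), NEFL (48.2%) and VIM (46.9%), against a median of 48.2%.

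None of the 7 filament genes passed the threshold between knockdown and control libraries. The test was limma on log2(FPKM + 1), with Benjamini-Hochberg adjustment over 12164 expressed genes and a threshold of 0.05. No gene of any kind passed it (0.0% in each direction), and this includes MIAT, the knockdown target. MIAT had a log2 difference of -1.42 (SE 0.27; limma unadjusted p = 0.00125, adjusted p = 0.9998). Unadjusted p was under 0.05 for 263 genes (2.16%), of which 0 were filament genes. Groups overlapped for all 7, where 4.01% of expressed genes were higher without overlap and 4.35% lower.

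The light chain NEFL, the subunit that neurofilaments require for assembly, was at 109, 112 and 67.7 FPKM in knockdown replicates 2, 3 and 4, against 113, 117 and 102 FPKM in the controls. Knockdown replicate 4 was the lowest of the 6, and the other knockdown values lay among the controls. The log2 difference was -0.23 (SE 0.19, 95% confidence interval -0.69 to 0.22; limma adjusted p = 0.9998), and 6.13e-05 without knockdown replicate 4.

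NEFM, the medium chain, was at 178, 197 and 91.9 FPKM in knockdown replicates 2, 3 and 4, against 212, 197 and 144 FPKM in the controls. Both libraries numbered 4 were low, knockdown replicate 4 more so. The log2 difference was the farthest from 0 of the 7, at -0.30 (SE 0.30, interval -1.0 to 0.41), and was 0.04 without knockdown replicate 4.

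NEFH, the heavy chain with the long phosphorylated tail, was at 52.8, 53.5 and 35.1 FPKM in knockdown replicates 2, 3 and 4, against 59.0, 57.7 and 43.2 FPKM in the controls. The same pair of libraries was low. Its log2 difference of -0.19 (SE 0.19, interval -0.64 to 0.27) was 0.0089 without knockdown replicate 4 and -0.13 (SE 0.05; unadjusted p = 0.0446, adjusted p = 0.789, limma) without both libraries numbered 4.

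**Figure D1:**
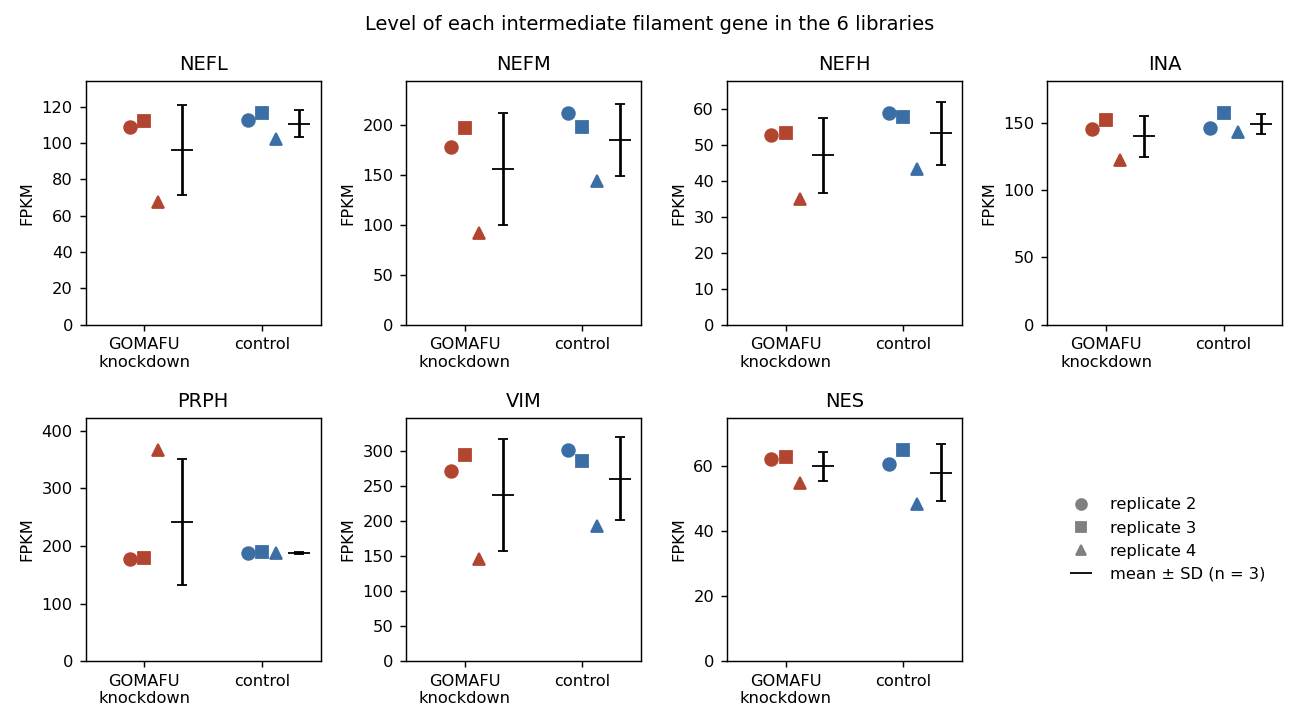
FPKM (vertical axes, from 0) of each filament gene in the 3 knockdown libraries (red, left) and the 3 control libraries (blue, right), with the mean and SD (n = 3) as black bars. In knockdown replicate 4 PRPH reached 367 FPKM while NEFM was at 91.9 and VIM at 146 FPKM, and control replicate 4 was also low for NEFM, NEFH and VIM.

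INA, which copolymerises with the neurofilament chains in the central nervous system, had the smallest fitted difference of the neuronal subunits. It was at 146, 152 and 123 FPKM in knockdown replicates 2, 3 and 4, against 146, 157 and 143 FPKM in the controls. Its log2 difference was -0.09 (SE 0.10, interval -0.33 to 0.14) and lay below 0 in all 17 alternative settings. It was -0.0027 (SE 0.07) without knockdown replicate 4 and -0.03 (SE 0.06) without both libraries numbered 4.

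PRPH, the peripheral neuron subunit, was at 177, 179 and 367 FPKM in knockdown replicates 2, 3 and 4, against 187.5, 190.1 and 187.5 FPKM in the controls. Knockdown replicates 2 and 3 were below all controls and knockdown replicate 4 was 1.95 times the control mean. Its log2 difference came to 0.27 (SE 0.27, interval -0.38 to 0.91) and -0.08 (SE 0.06; limma adjusted p = 0.952) without knockdown replicate 4. In that library 2.38% of expressed genes lay as far or farther above their control mean as PRPH did.

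VIM, the progenitor and mesenchymal filament, was at 272, 294 and 146 FPKM in knockdown replicates 2, 3 and 4, against 302, 286 and 193 FPKM in the controls. Both libraries numbered 4 were again low. Its log2 difference was -0.17 (SE 0.29, interval -0.86 to 0.52), and 0.14 without knockdown replicate 4.

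NES, the filament used to mark neural progenitors, was at 62.0, 62.8 and 54.7 FPKM in knockdown replicates 2, 3 and 4, against 60.6, 65.1 and 48.3 FPKM in the controls. Here control replicate 4 was the lowest library. The log2 difference was 0.05 (SE 0.12, interval -0.24 to 0.35), and -0.07 without control replicate 4.

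**Figure D2:**
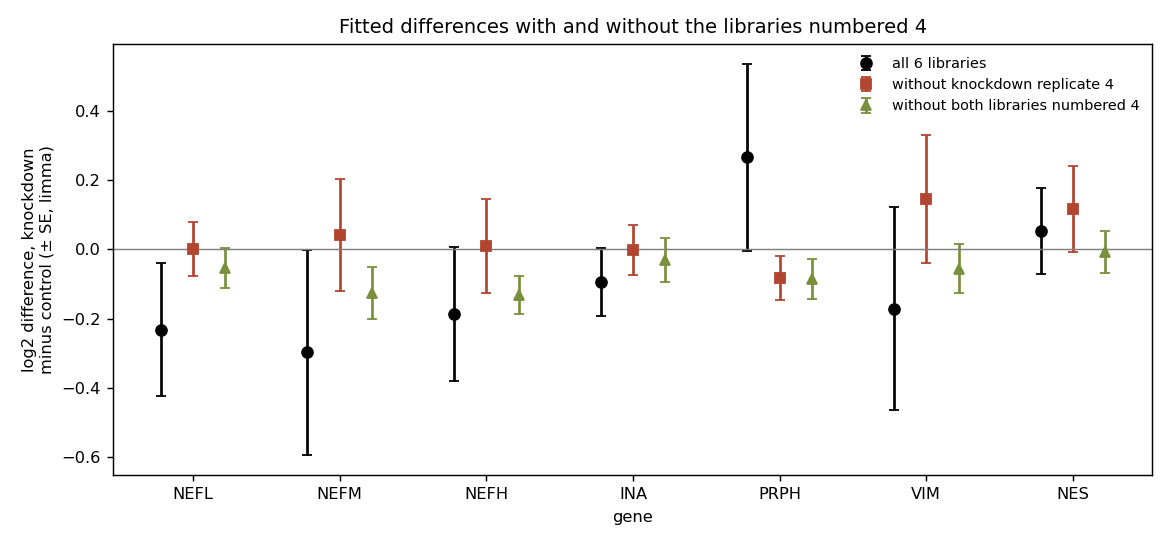
Fitted log2 difference, knockdown minus control, of each filament gene (vertical axis, limma, bars are SE) with all 6 libraries (black), without knockdown replicate 4 (red) and without both libraries numbered 4 (green). PRPH was at 0.27 with all libraries and -0.08 without knockdown replicate 4, and NEFM at -0.30 and 0.04.

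The libraries numbered 4 were low for nearly all of the family. They were the 2 lowest of the 6 libraries for NEFL, NEFM, NEFH, INA, VIM and NES, which held for 24.5% of expressed genes. Knockdown replicate 4 was the lowest and control replicate 4 the second lowest for 5 of the 7 (17.2% of expressed genes). Within the knockdown group, replicate 4 was 0.490 times the mean of replicates 2 and 3 for NEFM, 0.517 times for VIM, 0.613 times for NEFL and 0.660 times for NEFH, against 0.824 for INA and 0.876 for NES. In that group 0.510% of expressed genes lay as far below in replicate 4 as NEFM, and 0.682% as far below as VIM. Within the control group, replicate 4 was 0.658 times the mean of the others for VIM, 0.702 times for NEFM, 0.741 for NEFH, 0.769 for NES, 0.893 for NEFL and 0.944 for INA. PRPH was the exception, at 2.06 times within the knockdown group and 0.993 times within the control group.

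Interferon response genes, whose levels are given above, also had their highest median in knockdown replicate 4, and in control replicate 4 their median was -0.02 from the control mean. Their part in the values of the filament genes was not tested. Fewer cells of a kind and less RNA per cell cannot be told apart in bulk libraries.

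**Figure D3:**
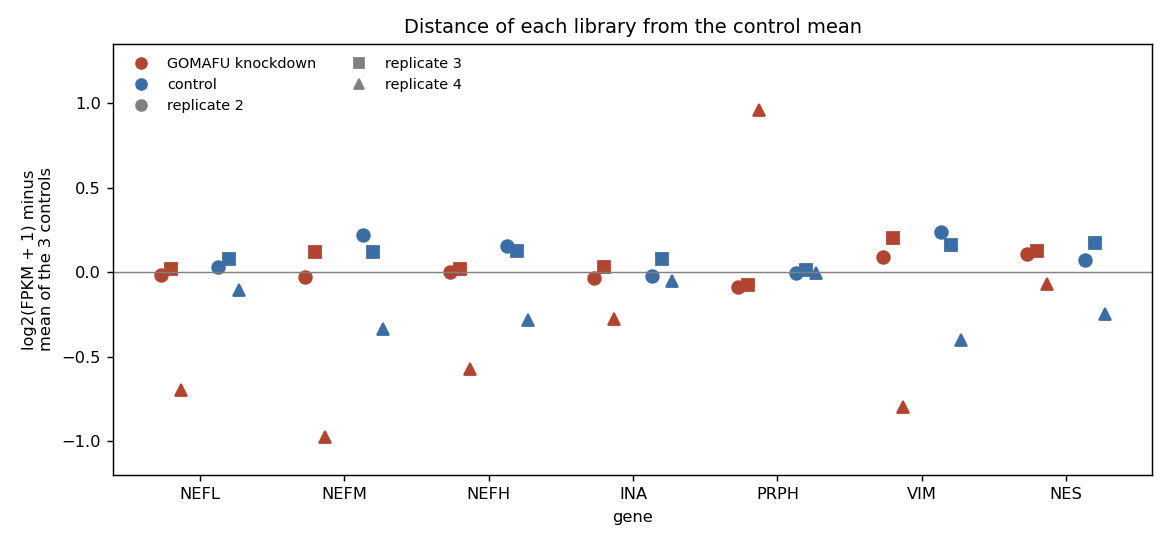
Log2(FPKM + 1) of each library minus the mean of the 3 controls (vertical axis) for each filament gene, with knockdown libraries in red on the left and controls in blue on the right, and triangles for the libraries numbered 4. Knockdown replicate 4 lay at -0.98 for NEFM, -0.80 for VIM and -0.70 for NEFL, but at 0.96 for PRPH.

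Without both libraries numbered 4, the remaining knockdown values lay below the remaining controls for NEFL, NEFM, NEFH and PRPH, where 19.3% of expressed genes did so. The differences were small, from -0.05 for NEFL to -0.13 for NEFM and NEFH, and none passed the threshold (limma adjusted p 0.789 to 0.867 for these 4). Without knockdown replicate 4 alone, only PRPH was lower without overlap (11.6% of expressed genes), and without control replicate 4 alone NEFL, NEFM and NEFH were (10.8%).

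Set library against library with the same number, NEFL, NEFM, NEFH and INA were lower in the knockdown library of each of the 3 pairs, as were 14.1% of expressed genes. The labels do not say that the numbers pair the libraries. NEFH was at 0.896, 0.926 and 0.812 times its same-numbered control in replicates 2, 3 and 4, and INA at 0.994, 0.964 and 0.855 times. NEFL was at 0.967, 0.959 and 0.661 times and NEFM at 0.840, 0.999 and 0.640 times, so NEFM was nearly level in replicate 3.

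The make-up of the family set knockdown replicate 4 apart through PRPH, which took 17.8, 17.02 and 41.5% of the summed FPKM of the 7 genes in knockdown replicates 2, 3 and 4, against 17.4, 17.8 and 21.8% in the controls. VIM took 27.3, 28.0 and 16.5% in knockdown and 28.0, 26.7 and 22.4% in control libraries. The sum itself was 996, 1050.2 and 886 FPKM in knockdown replicates 2, 3 and 4, against 1080.1, 1071 and 862 FPKM in the controls, so knockdown replicate 4 held the highest PRPH value within a sum between those of control replicates 3 and 4.

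The heavy to light chain proportion stayed between 0.422 and 0.523 in all 6 libraries. NEFH stood at 0.485, 0.478 and 0.518 times NEFL in knockdown replicates 2, 3 and 4, against 0.523, 0.495 and 0.422 times in the controls. NEFM stood at 1.63, 1.76 and 1.36 times NEFL in knockdown replicates, against 1.88, 1.69 and 1.40 times in the controls, and the lowest ratio of each group was in its replicate 4. PRPH stood at 1.63, 1.60 and 5.42 times NEFL in knockdown replicates, against 1.66, 1.63 and 1.83 times in the controls.

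**Figure D4:**
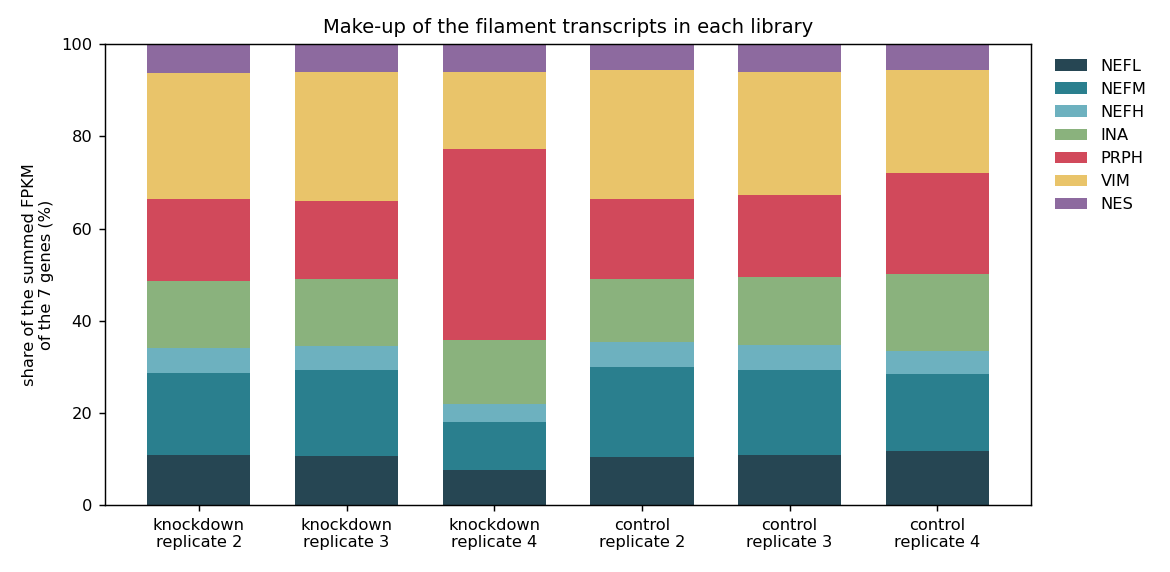
Share of each gene in the summed FPKM of the 7 filament genes (vertical axis, %) in each library, knockdown libraries on the left and controls on the right. PRPH filled 41.5% in knockdown replicate 4 and between 17.02% and 21.8% in the other 5 libraries.

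Over the 6 libraries the log2 levels of NEFL, NEFM, NEFH, INA and VIM correlated with one another at Pearson r = 0.886 to 0.986, and PRPH with these 5 at -0.829 to -0.969. NES correlated with the other 6 at -0.327 to 0.752. These are descriptions over 6 points that share 1 far library, knockdown replicate 4.

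Among the 9108 genes that averaged 5 FPKM or more, those most like PRPH over the 6 libraries were MYD88 (r = 0.998), SPATS2L and KCNK3. MYD88 was at 5.65, 5.96 and 21.0 FPKM in knockdown replicates 2, 3 and 4, against 6.08, 6.21 and 6.51 FPKM in the controls. Most like VIM were PNO1, PSMD14 and HK1, and most like NEFM were NPM3, EI24 and KXD1. NPM3 was at 90.7, 99.5 and 52.6 FPKM in knockdown replicates, against 103, 97.7 and 77.5 FPKM in the controls. NEFH was closest to ARF4, FH and MTHFD1, NEFL to genes that include OXLD1 and SNX12, INA to UBE2G1, ETFDH and YWHAZ, and NES to SDF4, NAA60 and ACTN1, all at r of at least 0.993. At r of 0.95 or more VIM had 662 such genes and NES 71.

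The place of NEFH on chromosome 22 set it in a stretch of lower values. Its 10 nearest expressed genes, 5 on each side, all had a fitted difference below 0, with a median of -0.24, and 6 of them were lower in knockdown libraries without overlap (4.35% over all expressed genes). They include EWSR1 at -0.18, THOC5 at -0.26 and NF2 at -0.20 on the log2 scale, and none passed the threshold. On the whole chromosome 230 of 291 expressed genes (79.0%) had a difference below 0, against 53.3% of all expressed genes. There 80 of the 291 (27.5%) were lower in knockdown libraries without overlap. MIAT itself lies 2.80 megabases before NEFH. In knockdown replicates 2, 3 and 4 the neighbours had medians of -0.27, -0.20 and -0.22 against the control mean, while NEFH was at 0.0004, 0.02 and -0.58. Without both libraries numbered 4 the neighbours' median was -0.25 and NEFH was at -0.13. NEFH thus shared the sign of its neighbours with all 6 libraries and without both libraries numbered 4. Without knockdown replicate 4 alone it was at 0.0089. In knockdown replicates 2 and 3 NEFH was not below the control mean of the log2 values. Its FPKM there (52.8 and 53.5) lay below control replicates 2 and 3 (59.0 and 57.7) and above control replicate 4 (43.2). NEFH followed the low values of the libraries numbered 4, which the neighbours did not.

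The neighbours of the other filament genes had medians between -0.06 and 0.06, with 0 or 1 of 10 lower without overlap in each set. NEFL and NEFM, next to each other, differed by -0.23 and -0.30, while the median of their neighbours was -0.03 and -0.04. Each of these genes counts among the neighbours of the other, and the sets share most other genes, so these medians are not independent. Beside PRPH lie the alpha-tubulin genes TUBA1B and TUBA1A, which differed by -0.26 and -0.33 on the log2 scale, against 0.27 for PRPH. Of the 10 neighbours of PRPH, 6 were below 0 and 4 above, among the latter RHEBL1 at 0.26.

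**Figure D5:**
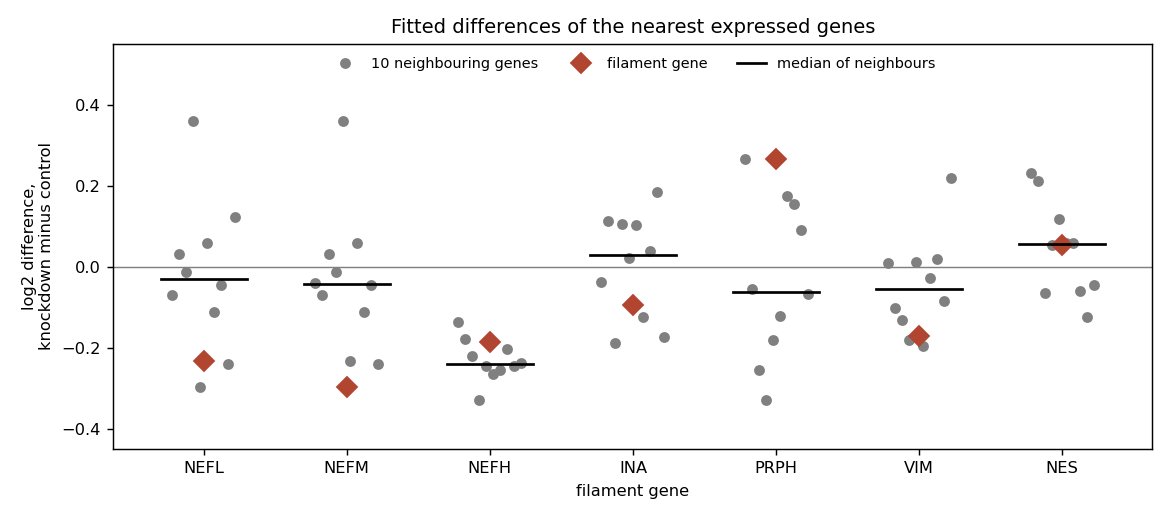
Fitted log2 difference, knockdown minus control (vertical axis), of each filament gene (red diamond) and of the 5 nearest expressed genes on each side (grey points, black line at their median). All 10 neighbours of NEFH lay below 0, with a median of -0.24, and the other medians lay between -0.06 and 0.06. NEFL and NEFM count among each other's neighbours.

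Proteins that build on, move or remove the filaments were examined through lists chosen with earlier results known, and 0 genes of any list passed the threshold in either direction. Over all expressed genes the median log2 difference was -0.0081. Nuclear lamina and envelope genes (12 of 13 expressed) had a median of -0.03, and 1 was lower without overlap (4.35% of all expressed genes were): SUN2, which links the lamina to the cytoskeleton, at 22.1, 23.9 and 17.7 FPKM in knockdown replicates 2, 3 and 4, against 26.4, 25.1 and 27.9 FPKM in the controls (log2 -0.32; limma unadjusted p = 0.0306, adjusted p = 0.9998). SUN2 lies on chromosome 22 too, where 27.5% of expressed genes were lower without overlap. LMNA, the gene of the A-type lamins, averaged 160.3 FPKM in knockdown and 152 FPKM in control libraries.

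Cytolinkers, which tie filaments to actin and microtubules, had 4 of 7 expressed and a median of 0.07. PLEC (plectin) was at 10.7, 9.63 and 13.7 FPKM in knockdown replicates 2, 3 and 4, against 9.19, 9.89 and 9.25 FPKM in the controls, a log2 difference of 0.23 (SE 0.13). DSP was listed at 0 throughout.

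Filament kinases and phosphatases (22 of 22 expressed) had a median of -0.04, with 2 lower without overlap, against 4.35% of all expressed genes. CDK5, a kinase of neurofilament tails, was 1 of these, at 12.6, 13.6 and 11.2 FPKM in knockdown replicates 2, 3 and 4, against 14.4, 13.7 and 16.4 FPKM in the controls (log2 -0.24, SE 0.10; limma unadjusted p = 0.0531, adjusted p = 0.9998). Transport motor genes (13 of 14) had a median of -0.05 and 1 member lower without overlap (4.35% of all expressed genes), the dynactin subunit DCTN1 (-0.09), and its partner DCTN2 differed by -0.12.

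Turnover and chaperone genes (11 of 14) had a median of -0.01 with no member without overlap. The calpain subunit CAPNS1 differed by -0.13 and the chaperone DNAJB6 by 0.14. The 4 RNA-binding proteins reported on neurofilament mRNAs had a median of 0.01, with HNRNPK at -0.05 and ARHGEF28 at 0.07. The other cytoplasmic filament genes had a median of 0.04 over the 4 expressed, with SYNM (synemin, a partner of vimentin) at 0.19.

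Regulators of neuronal and progenitor state likewise stayed short of the threshold. Progenitor and mesenchymal transcription factors (10 of 16 expressed) had a median of 0.13 with 9 above 0 and 1 below, where 53.3% of all expressed genes were below. Of these, 1 was higher without overlap (4.01% of all expressed genes): REST, a repressor of neuronal genes, at 2.24, 2.04 and 1.71 FPKM in knockdown replicates 2, 3 and 4, against 1.70, 1.67 and 1.06 FPKM in the controls (log2 0.28, SE 0.15). The list lay by its median at 0.02, -0.06 and 0.26 in knockdown replicates 2, 3 and 4, and 0.12 in control replicate 4, from the control mean. SOX2, a progenitor factor, averaged 0.40 FPKM in knockdown and 0.51 FPKM in control libraries and did not reach the filter. Neuronal differentiation factors (6 of 15) had a median of -0.03. Adrenergic identity genes (15 of 17) had a median of -0.06 and mesenchymal identity genes (7 of 20) a median of 0.07, with 1 lower without overlap in each (4.35% of all expressed genes), the granule protein gene CHGA (-0.35) and CD44 (-0.18).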

How the data were processed

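RNA of 6 libraries was measured as polyadenylated RNA with paired reads of 150 bases and a target of 100M reads per sample, per the labels' protocols. The authors deposited FPKM values with 1 column per library. They used hg38, TopHat2 and Cuffdiff, per the submitters' processing notes, with versions, annotation and filters not stated there. Where FPKM is scaled to the mapped total, a few abundant transcripts that rise lower all other values. How these libraries were scaled was not checked, and depth in reads is unknown. Smallest steps between low values gave depths relative to control replicate 3 of 1.07, 1.36 and 1.06 in knockdown replicates 2, 3 and 4, and 1.09 and 0.973 in control replicates 2 and 4.

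The 12164 genes averaging at least 1 FPKM were compared on log2(FPKM + 1) with limma 3.58.1 in R 4.3.3 (eBayes with trend, two-sided, no covariate), which understates the change of low genes. P-values were adjusted by Benjamini-Hochberg over all of them. The steps were tested on simulated data drawn from the means and SDs of the controls. These held no outlying library like knockdown replicate 4, so they do not show how the fit performs with such a library. Groups did not overlap where all values of 1 group lay above all of the other. An exact permutation test of 3 against 3 cannot go below p = 0.1 and was not used. GENCODE 29 matched 94.9% of these genes by symbol, and all 215 entries of 16 lists were found in the table. The members, lists and tests were chosen with earlier results of these data known. Genes named are the 7 members, MIAT, VIM-AS1, up to 2 per list with the smallest p, and 3 per member with the highest Pearson r; a few that the rule names are not reported here. Those named beyond that rule, such as HAND2, TH, LMNA, SOX2, KRT8 and the named neighbours, were chosen after their values were seen. Alternatives were other pseudocounts (0.1, 0.01), a minimum of 5 FPKM or none, quantile normalization, upper-quartile scaling, robust eBayes or no trend, a block for the replicate number, library weights, and libraries left out. Neighbours without both libraries numbered 4, and shares of non-overlap with libraries left out, were added after seeing the data.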

Additional observations from a re-analysis of the deposited data

How the results depend on the processing

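Under 17 alternatives, 0 of the 7 filament genes passed the threshold (limma adjusted p at least 0.273). INA kept its direction in all of them, but came to -0.0027 without knockdown replicate 4. With single libraries left out, log2 differences ran from -0.36 to 6.13e-05 for NEFL, -0.50 to 0.042 for NEFM, -0.33 to 0.0089 for NEFH, -0.37 to 0.14 for VIM, -0.082 to 0.44 for PRPH and -0.071 to 0.14 for NES. Directions turned without knockdown replicate 4 for the first 5 of these, and without control replicate 4 for NES. They also turned for PRPH and NES with library weights (-0.059 and -0.045) and without both libraries numbered 4 (-0.085 and -0.0086). Genes past the threshold numbered 0, but 5 with no filter, 22 with library weights and 1 without both libraries numbered 4, and 0 without any single library. Filament genes without overlap numbered 0, but 4 were lower without both libraries numbered 4, as were 19.3% of expressed genes. Without single libraries they numbered 0 to 3. Of these settings, 3 were lower without control replicate 4 (10.8% of expressed genes) and 1 without knockdown replicate 4 (11.6%). The cause was not tested, beyond the fewer libraries in those settings. With the replicate block 0 genes and 0 filament genes passed, and NEFH had an unadjusted p of 0.0376 (adjusted 0.894). Deviations of same-numbered libraries correlated at 0.09, 0.17 and 0.32, and not every library correlated best with its own number, so the numbers were not taken as pairs. With 3 libraries a group, the intervals of NEFL, NEFM, NEFH, PRPH and VIM reach beyond 0.5 on the log2 scale in at least 1 direction.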

Other observations

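Some markers of the line's identity were uneven. PHOX2A averaged 401 ± 60.4 FPKM in knockdown and 417 ± 37.9 FPKM in control libraries (SD, n = 3 each). DDC, an enzyme of catecholamine synthesis, averaged 170.1 FPKM in knockdown and 185 FPKM in control libraries, while TH, the enzyme before it in the pathway, stood below 0.1 FPKM. TWIST1, from the list of progenitor and mesenchymal transcription factors, averaged 169.5 FPKM in knockdown and 163 FPKM in control libraries. The mesenchymal identity list (7 of 20 genes expressed) was low as a whole. It summed to 30.7 to 34.3 FPKM in knockdown and 28.6 to 32.1 FPKM in control libraries. In it PRRX1 was listed at 0 throughout and YAP1 at no more than 0.01 FPKM. Among 7 fibroblast markers DCN (decorin) averaged 69.0 FPKM in knockdown and 67.2 FPKM in control libraries, LUM 9.55 and 7.22 FPKM, and PDGFRB 21.2 and 18.9 FPKM, with COL1A2 listed at 0. In knockdown replicate 4 PDGFRB was at 31.7 FPKM and LUM at 13.8 FPKM, both the highest of the 6 libraries. DCN went the other way there, at 58.6 FPKM, against 70.4 and 77.9 FPKM in knockdown replicates 2 and 3. In control replicate 4 DCN was at 51.5 FPKM. These genes were chosen after their values were seen, and none was past the threshold between the groups (limma).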
